A study of Homo sapiens with 4 samples.

Results

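The mitochondrial ribosomal protein genes are the nuclear genes, named MRPL for the large subunit and MRPS for the small subunit, whose products form the protein part of the ribosome inside mitochondria. Members were the rows of the deposited gene table whose symbol is MRPL or MRPS followed by a number, with an optional letter A, B or C for MRPS. This gave 77 members of 15279 named rows, 49 with MRPL symbols and 28 with MRPS symbols, and all 77 passed the filter on low values. MRPS24 was not analysed here. RNA-seq was made from 2 groups of human cells, both grown in DMEM with 10% serum (FBS): MDAMB231 (MDA231-P), the parental triple-negative breast cancer line MDA-MB-231, and MDAMB231Br (MDA231-BR), labelled as breast cancer brain metastasis and known as a brain-seeking derivative of the same line. Each line is represented by 2 libraries, called A and B in column order, and no treatment or other genotype is given. Whether the 2 libraries of a line were grown as separate cultures is not stated, and the p-values therefore reflect only how these libraries vary, possibly for technical reasons.

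Mitochondrial ribosomes translate the few proteins encoded by mitochondrial DNA, all of them core subunits of the oxidative phosphorylation complexes. Their RNA comes from mitochondrial DNA, but every one of their proteins is made in the cytosol and imported. Some of these proteins have counterparts in bacterial ribosomes, and others occur only in mitochondrial ribosomes. Symbols do not always give the subunit: MRPS30 and MRPS18A lie in the large subunit in structures, and MRPS36 is a subunit of the 2-oxoglutarate dehydrogenase complex and not of the ribosome. By structural place, the members thus comprise 51 large subunit genes, 25 small subunit genes and MRPS36.

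Reads assigned to named genes numbered 25835225 to 30771290 per library. Of the markers fixed for the line, the mesenchymal gene VIM had normalized read counts of 42476 and 38423 in the parental and 118095 and 119552 in the brain metastatic libraries, and CD44, EGFR, AXL, CAV1 and LGALS1 were likewise abundant in all libraries. CAV1 was lower in the brain metastatic libraries, at 10799 and 9773 against 27966 and 27283 in the parental. Its log2 fold change was -1.43 (limma-trend adjusted p = 0.00523). The matrix gene SPARC, of the same list, had 33.3 and 48.5 in the parental and 4541 and 4252 in the brain metastatic libraries. The estrogen receptor gene ESR1 and the epithelial cadherin gene CDH1 had means of 0.97 and 4.19 in parental and 16.6 and 11.3 in brain metastatic cells, too low for the test. The list of low markers also held PGR, which had no row. The remaining genes of this list were expressed. The means in the parental and brain metastatic cells were 3263 and 2445 for the keratin gene KRT8 and 1097 and 1112 for ERBB2. Those for EPCAM were 365 and 159, and those for GATA3 were 264 and 248. Markers of other cells had rows for 2 of 12 genes, MBP and PECAM1, whose summed level in CPM (reads scaled to a common total of reads in named genes) was 91.4 and 101 in the parental and 146 and 154 in the brain metastatic libraries, and their part in the results was not tested. Brain metastatic library B stood apart: it had 0.17% of its reads in 15 pseudogenes of mitochondrial genes, against 0.0425% to 0.0483% in the other 3 libraries. Results are therefore given with and without it. In bulk RNA, fewer cells of a type and less RNA per cell cannot be told apart.

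Of the 77 members, 4 were lower and 0 higher in brain metastatic cells, and 73 did not pass (limma-trend, Benjamini-Hochberg adjusted p below 0.05 over 14424 genes). The genes that fell were MRPS33, MRPL41, MRPL36 and MRPL21. Over all genes tested, 14.4% were called, 8.61% higher and 5.8% lower, so the 5.19% of members that fell is close to the share of all genes that fell, while no member was among the genes that rose. At an unadjusted p below 0.05 there were 11 members (14.3%), 10 of them lower, a smaller share than the 31.8% of all genes tested. The test of edgeR (quasi-likelihood on the recovered reads) called 4 members lower, where it called 6.48% of all genes lower, and DESeq2 called 6 lower, where it called 8.92%. Both called 0 members higher, against 8.96% of all genes with edgeR and 11.3% with DESeq2. Limma-voom also called 4 members lower and 0 higher, against 6.45% and 8.36% of all genes.

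MRPS33, a protein of the small subunit found only in mitochondrial ribosomes, had normalized read counts (reads divided by a size factor per library) of 1449.6 and 2135 in the parental and 719 and 472 in the brain metastatic libraries, always in the order A and B. Both brain metastatic libraries lay below both parental libraries. Its means were 1792 ± 485 for parental and 595 ± 175 for brain metastatic cells (SD, n = 2 per line), a log2 fold change of -1.59 ± 0.305 SE (limma-trend adjusted p = 0.0138) on the log2(value + 1) scale, or 3.02-fold lower. MRPL41, a large subunit protein specific to mitochondria that has also been described as a binding partner of BCL2, had normalized counts of 786 and 1104 in the parental and 479 and 235 in the brain metastatic libraries. The lines again did not overlap, and brain metastatic library B was the lower of its pair. Its means were 945 ± 225 for parental and 357 ± 172 for brain metastatic cells (SD, n = 2 per line), with a log2 fold change of -1.47 ± 0.371 SE (adjusted p = 0.0358), or 2.77-fold lower. MRPL36, the small counterpart of the bacterial large subunit protein L36, had normalized counts of 969 and 1226 in the parental and 571 and 281 in the brain metastatic libraries. Its means were 1098 ± 182 for parental and 426 ± 205 for brain metastatic cells (SD, n = 2 per line), with a log2 fold change of -1.44 ± 0.357 SE (adjusted p = 0.0339). The difference from the parental mean on the log2 scale was -0.93 for library A and -1.95 for library B, and both libraries lay below the parental pair. MRPL21, the counterpart of bacterial L21, had normalized counts of 1819 and 2233 in the parental and 1209 and 831 in the brain metastatic libraries, with no overlap. Its means were 2026 ± 293 for parental and 1019.9 ± 267 for brain metastatic cells (SD, n = 2 per line), with a log2 fold change of -1.01 ± 0.268 SE (adjusted p = 0.0424).

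These 4 calls depended on single libraries. Without parental library B, 0 members passed, with adjusted p of 0.159 for MRPS33 and 0.295 for MRPL41, and 0.513% of all genes were called lower and 2.46% higher in that fit. Without parental library A only MRPS33 passed (adjusted p = 0.0488), with 0.77% of all genes called lower and 2.15% higher. A fit without a library leaves 1 library in its line and assumes that it varies like the other line. Without brain metastatic library B, MRPS33, MRPL41 and MRPL36 fell, MRPL21 did not pass (adjusted p = 0.0585) and MRPL2 rose (log2 fold change 0.81, adjusted p = 0.0355), while 10.2% of all genes were called lower and 11.6% higher. Without brain metastatic library A, 27 members were lower and 1 higher, against 16.7% and 19.8% of all genes.

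**Figure D1:**
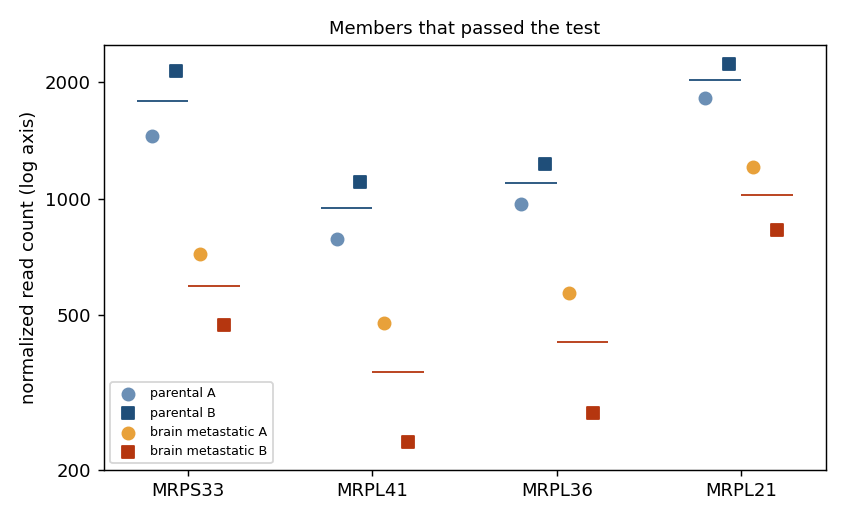
Normalized read counts (log axis) of the 4 members that passed the test, in each of the 4 libraries, with horizontal lines at the mean of each line. In every one of these genes both brain metastatic libraries lie below both parental libraries, and brain metastatic library B is the lowest.

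The stretches upstream of the start sites of MRPS33, MRPL41 and MRPL36 are shown because these genes fell, and those of MRPS26 and MRPS34 because, among members with the ETS motif in this window, they had the most negative fold changes. MRPL21 had no entry. Each is the 250 bases before the outermost listed start, 5′ to 3′ (RefSeq, GRCh38.p14), at chr7:141014953-141015202 (reverse strand) for MRPS33, chr9:137551629-137551878 (forward strand) for MRPL41, chr5:1799838-1800087 (reverse strand) for MRPL36, chr20:3045802-3046051 (forward strand) for MRPS26 and chr16:1773135-1773384 (reverse strand) for MRPS34. Capitals mark matches, on either strand, to the core sites of 3 factor families long tied to nuclear genes for mitochondria: CCGGAAG for ETS factors such as GABPA, GCGCA, any base and GCGC for NRF1, and AAGATGG followed by CGG for YY1.
MRPS33: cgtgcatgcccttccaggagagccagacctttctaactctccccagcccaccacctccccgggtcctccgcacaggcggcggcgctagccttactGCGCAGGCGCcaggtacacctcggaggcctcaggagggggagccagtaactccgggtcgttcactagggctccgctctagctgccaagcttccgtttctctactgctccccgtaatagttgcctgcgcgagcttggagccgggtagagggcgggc
MRPL41: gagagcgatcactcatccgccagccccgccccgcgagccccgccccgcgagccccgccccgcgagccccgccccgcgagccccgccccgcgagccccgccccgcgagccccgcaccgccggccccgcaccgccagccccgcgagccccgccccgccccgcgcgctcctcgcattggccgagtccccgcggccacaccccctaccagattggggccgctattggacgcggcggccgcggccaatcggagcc
MRPL36: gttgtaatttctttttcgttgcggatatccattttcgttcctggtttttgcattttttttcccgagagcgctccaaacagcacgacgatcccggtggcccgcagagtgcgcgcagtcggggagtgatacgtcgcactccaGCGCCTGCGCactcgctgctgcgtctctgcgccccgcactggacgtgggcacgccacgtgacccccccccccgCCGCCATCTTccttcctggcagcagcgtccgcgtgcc
MRPS26: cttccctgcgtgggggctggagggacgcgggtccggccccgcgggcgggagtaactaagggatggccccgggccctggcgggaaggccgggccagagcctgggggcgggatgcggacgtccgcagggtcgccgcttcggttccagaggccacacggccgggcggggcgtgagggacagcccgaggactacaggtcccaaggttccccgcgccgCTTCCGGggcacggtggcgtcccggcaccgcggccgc
MRPS34: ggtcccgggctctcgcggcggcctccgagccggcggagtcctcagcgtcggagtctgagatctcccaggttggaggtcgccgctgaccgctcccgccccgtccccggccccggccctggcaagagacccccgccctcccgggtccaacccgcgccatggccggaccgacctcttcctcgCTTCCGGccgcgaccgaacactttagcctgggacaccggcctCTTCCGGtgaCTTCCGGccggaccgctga

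Windows were listed for 68 of 77 members; the others were MRPL2, MRPL10, MRPL13, MRPL15, MRPL21, MRPL23, MRPL35, MRPS28 and MRPS36. The ETS motif stood in 25 of the 68 (36.8%), against 10.2% of all 27305 genes with a window and 19.3% of the genes tested. The NRF1 motif stood in 9 members (13.2%), against 6.2% of all genes and 12.1% of the genes tested, so members were near the level of expressed genes. YY1 matches were found in 3 members (MRPL32, MRPL36 and MRPL52), 4.41% against 0.44% of all genes and 0.794% of the genes tested. The TATAAA motif stood in 2 members, MRPL54 and MRPS15, 2.94% against 13.1% of all genes and 7.87% of the genes tested. CCAAT stood in 30.9% of members, against 37% of all genes and 41.9% of the genes tested. The motifs differ in letters and may overlap each other where they share bases. MRPS33 and MRPL36 each held 1 NRF1 match, MRPL36 also held a YY1 match, MRPL41 held none of these 3 but 4 CCAAT boxes, and MRPS34 held 3 ETS matches. A match is a run of letters, not a measured binding site. The median log2 fold change was -0.41 for the 25 members with the ETS motif and -0.24 for the 43 without it, a difference that was not tested.

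Below the level of single calls, most members had lower values in brain metastatic cells. The log2 fold change was negative for 62 of 77 members, against 49.1% of all genes tested, and its median was -0.33 against 0.01. This shift was larger in brain metastatic library B. Relative to the parental mean, the members of library A had a median log2 difference of -0.04, with 44 of 77 below 0, and those of library B had -0.57, with 68 of 77 below 0. Library B had the lowest of the 4 values for 65 members (84.4%, against 31.6% of all genes), and parental library B the highest for 50 (64.9%, against 28.1%). Libraries of the same line also differed. Parental library B exceeded parental library A for 67 members (median difference 0.25), and brain metastatic library B was below library A for 74 (median -0.56). The lines did not overlap for 26 members that were lower, against 29.7% of all genes, and for 3 that were higher (MRPL2, MRPL44 and MRPS18B), against 31.7%. Without brain metastatic library B the median of the members' log2 fold changes was -0.04, and without library A it was -0.57. Leaving out parental library A gave -0.45, and leaving out the other parental library gave -0.17.

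**Figure D2:**
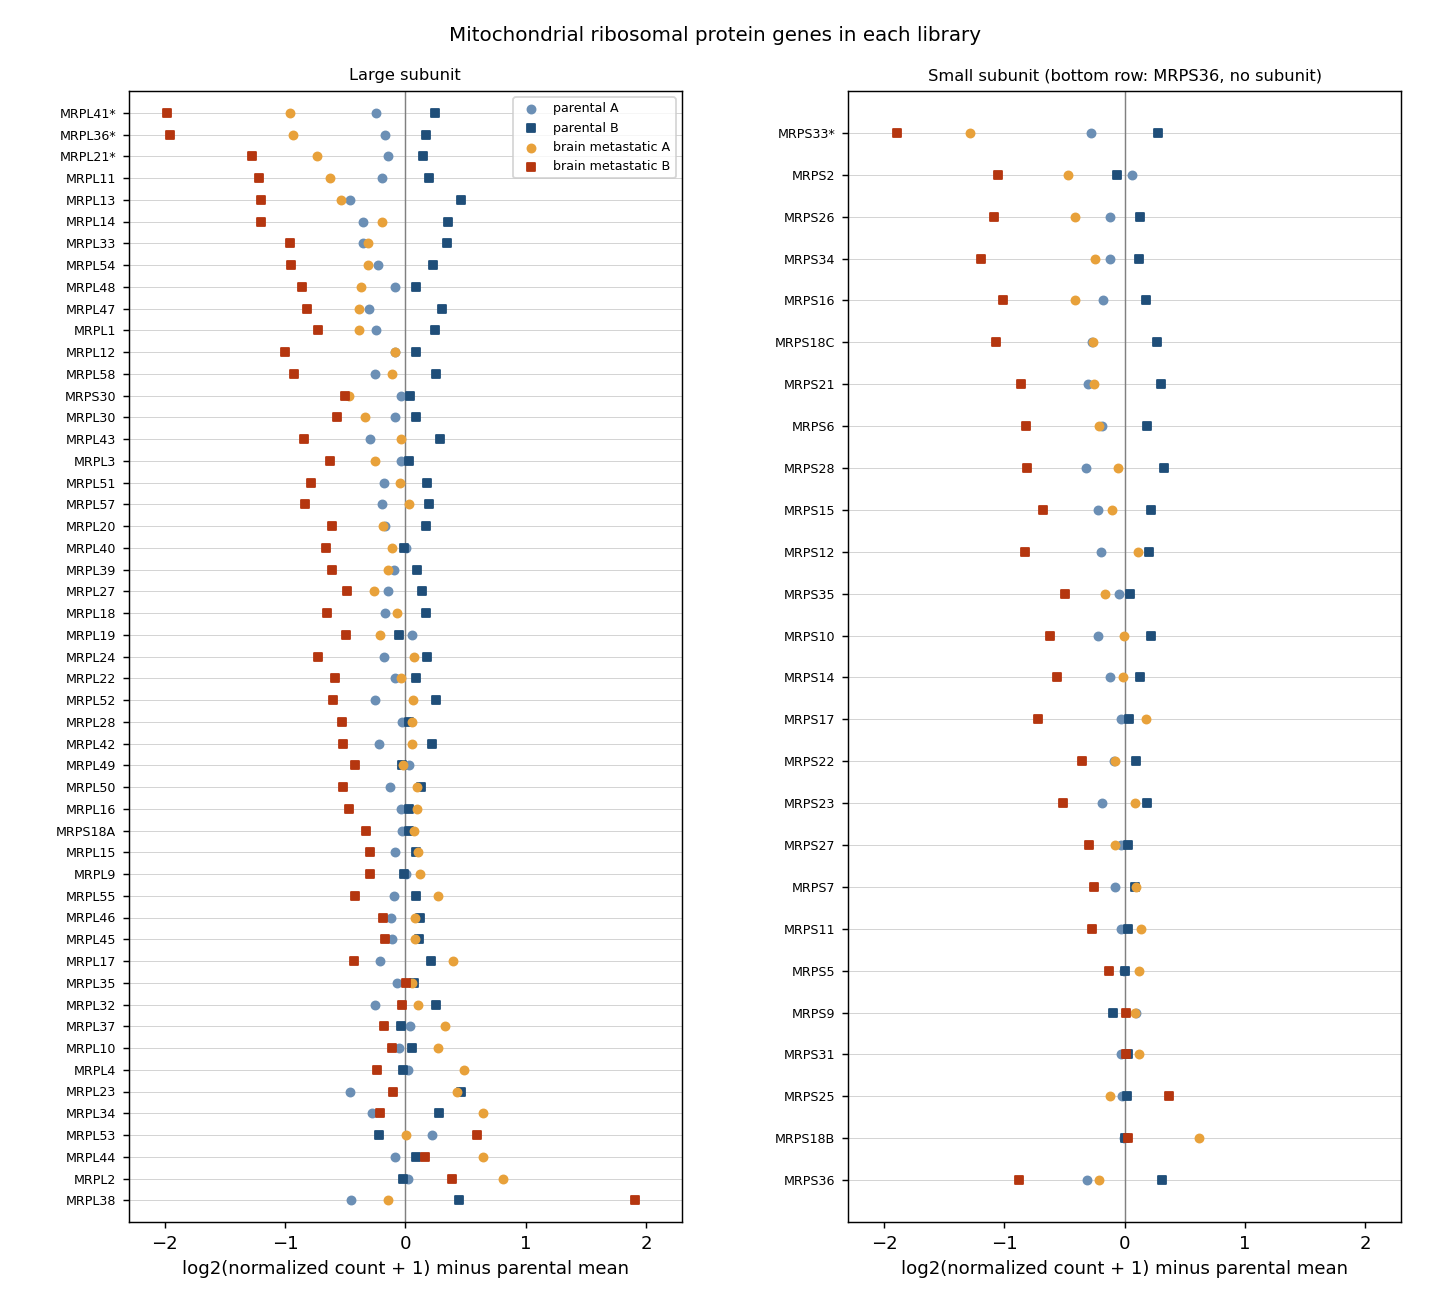
Log2(normalized count + 1) minus the mean of the parental libraries for each of the 77 members (rows, ordered by fold change within a subunit), one point per library; asterisks mark the 4 members that passed. Brain metastatic library B lies lowest in 65 rows, while brain metastatic library A lies among or near the parental points in most.

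Both subunits shared this pattern. In the large subunit 3 of 51 members fell (5.88%), 0 rose and 48 did not pass, with a median log2 fold change of -0.33. In the small subunit 1 of 25 fell (4%), 0 rose and 24 did not pass, with a median of -0.32. Over all genes tested 5.8% fell and 8.61% rose, so the shares that fell are close to that of all genes. MRPS36, the member that belongs to neither, had normalized counts of 1099.8 and 1692 in the parental and 1176 and 741 in the brain metastatic libraries and did not pass (log2 fold change -0.55). The summed level of the large subunit genes was 2973 and 3692 CPM in the parental and 3057 and 2100.1 in the brain metastatic libraries. That of the small subunit genes was 1431 and 1674 in the parental and 1439 and 1036 in the brain metastatic libraries. In both subunits brain metastatic library A lay between the parental libraries, and only library B lay below them. The mean was 3333 ± 509 in parental and 2579 ± 677 in brain metastatic cells for the large subunit (SD, n = 2 each), and 1553 ± 172 and 1238 ± 285 for the small subunit (SD, n = 2 each). The ranges of the lines overlapped, so no difference beyond the spread between libraries was shown. The ratio of the 2 sums lay between 2.028 and 2.205 in the 4 libraries.

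**Figure D3:**
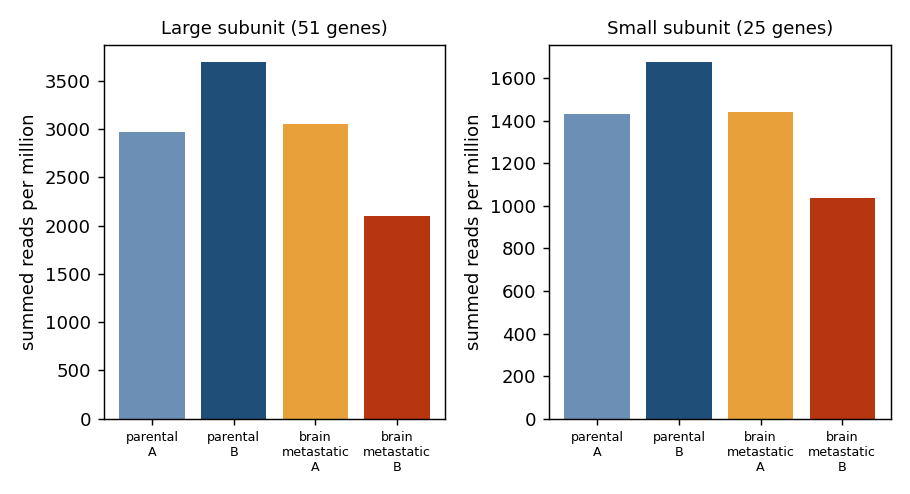
Summed CPM of the 51 large subunit genes and the 25 small subunit genes in each library (bars, axes from 0). In both panels brain metastatic library A lies between the parental libraries and brain metastatic library B is the lowest.

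By ancestry, 2 of 45 members grouped as having a bacterial counterpart fell (4.44%, MRPL36 and MRPL21). Of 31 grouped as specific to mitochondrial ribosomes, 2 did (6.45%, MRPL41 and MRPS33). Over all genes tested, 5.8% fell. MRPS18A and MRPS18B were counted among the 31, although they belong to the family of bacterial S18. The medians of the log2 fold change were -0.35 and -0.23. Within the small subunit the medians were -0.36 over 15 genes of the first group and -0.21 over 10 of the second, MRPS18B among them.

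Among the large subunit genes, those at the base of the stalk that recruits translation factors differed from each other. MRPL11, the counterpart of bacterial L11, had normalized counts of 2264 and 2974 in the parental and 1681 and 1119 in the brain metastatic libraries, with no overlap. Its log2 fold change of -0.92 ± 0.278 SE missed the threshold (adjusted p = 0.0629), and its 95% interval was -1.56 to -0.28. DESeq2 called it lower (adjusted p = 0.0191). MRPL12, the stalk protein itself, had normalized counts of 568 and 639 in the parental and 567 and 301 in the brain metastatic libraries, with library A level with the lower parental library and library B well below it (log2 fold change -0.54, adjusted p = 0.301). MRPL10, which anchors MRPL12, had a log2 fold change of 0.08, and MRPL54, a mitochondria-specific protein, had normalized counts of 475 and 651 in the parental and 449 and 287 in the brain metastatic libraries. MRPL1, the protein of the mobile stalk next to the exit site for transfer RNA, had normalized counts of 1885 and 2659 in the parental and 1709 and 1349 in the brain metastatic libraries and a log2 fold change of -0.56. In the fit lacking brain metastatic library A, MRPL1, MRPL11, MRPL12 and MRPL54 were all called lower, and without library B none of them was.

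Around the exit of the tunnel for nascent chains, MRPL47, the counterpart of bacterial L29, had normalized counts of 2957 and 4520.3 in the parental and 2802 and 2079 in the brain metastatic libraries. MRPL24, of the L24 family, had 1950.4 and 2498 in the parental and 2325 and 1331 in the brain metastatic libraries, with brain metastatic library B alone below the parental range. MRPL45, which helps to hold the ribosome at the inner membrane, had a log2 fold change of -0.04 with a 95% interval of -0.58 to 0.49. MRPL23 had few reads, at 48.6 and 93.1 in the parental and 91.2 and 62.5 in the brain metastatic libraries, with overlapping lines. MRPL22 had a log2 fold change of -0.31. None of these passed with all libraries.

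Near the catalytic centre, MRPL2 and MRPL3 pointed in opposite directions without passing. MRPL2, the counterpart of bacterial L2, had normalized counts of 1299 and 1267 in the parental and 2246 and 1675 in the brain metastatic libraries, so that both brain metastatic libraries lay above both parental libraries. Its log2 fold change was 0.60 ± 0.242 SE (adjusted p = 0.135, 95% interval 0.04 to 1.15). MRPL3, the counterpart of L3, had a log2 fold change of -0.44 (adjusted p = 0.23). MRPL44, a protein with an RNase III-like fold, was also higher in both brain metastatic libraries, with normalized counts of 803 and 904 in the parental and 1330.0 and 953 in the brain metastatic libraries and a log2 fold change of 0.40 ± 0.26 SE (adjusted p = 0.324).

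In the central protuberance, MRPL48 had normalized counts of 1130.5 and 1276 in the parental and 931 and 663 in the brain metastatic libraries, lower in both brain metastatic libraries, with a log2 fold change of -0.61 (adjusted p = 0.15). MRPL40 and MRPL46 had log2 fold changes of -0.39 and -0.06. MRPL38 was near the limit of detection: it had 8 and 14 reads in the parental and 9 and 37 in the brain metastatic libraries, and its log2 fold change of 0.88 (95% interval -0.88 to 2.64) rested on the high value of library B. MRPL53, also low, had normalized counts of 50.3 and 36.9 in the parental and 43.2 and 65.7 in the brain metastatic libraries, with overlapping lines.

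MRPL13, the counterpart of L13, had normalized counts of 4052 and 7692 in the parental and 3845 and 2423 in the brain metastatic libraries. The lines did not overlap, but the parental libraries differed from each other by more than the lower of them differed from brain metastatic library B. Its log2 fold change was -0.87 ± 0.352 SE (adjusted p = 0.134), and DESeq2 called it lower (adjusted p = 0.0447). Other large subunit members passed only without brain metastatic library A. MRPL14, which faces the small subunit, had normalized counts of 2529 and 4143 in the parental and 2822 and 1408 in the brain metastatic libraries. MRPL33, the counterpart of L33, had 2515 and 4077 in the parental and 2579 and 1649 in the brain metastatic libraries, and MRPL58, a release factor-like hydrolase built into the ribosome, had 844 and 1204 in the parental and 934 and 529 in the brain metastatic libraries. In these 3 genes library A lay within the parental range and library B below it. MRPL43 had normalized counts of 1295 and 1939 in the parental and 1542 and 882 in the brain metastatic libraries, MRPL51 had 3348 and 4279.7 in the parental and 3675 and 2199 in the brain metastatic libraries and MRPL57 had 968 and 1273 in the parental and 1131 and 623 in the brain metastatic libraries. The same arrangement held, and their log2 fold changes were -0.44, -0.41 and -0.40.

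Of the genes named MRPS but placed in the large subunit, MRPS30 was lower in both brain metastatic libraries by a like amount, with normalized counts of 2163 and 2287 in the parental and 1608 and 1574 in the brain metastatic libraries and log2 differences from the parental mean of -0.47 for library A and -0.50 for library B. It did not pass (log2 fold change -0.48 ± 0.217 SE, adjusted p = 0.169). MRPS18A had normalized counts of 355 and 369.6 in the parental and 381 and 288 in the brain metastatic libraries and a log2 fold change of -0.13. It belongs to the family of bacterial S18, whose other 2 members lie in the small subunit. MRPS18B had normalized counts of 1883 and 1892 in the parental and 2889 and 1923 in the brain metastatic libraries, with library A well above the parental pair and library B just above it (log2 fold change 0.32, adjusted p = 0.427). MRPS18C had 274 and 398 in the parental and 275 and 157 in the brain metastatic libraries (log2 fold change -0.67, adjusted p = 0.242). The 3 paralogs thus had estimates of both signs, none past the threshold.

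In the small subunit 8 of 25 genes were lower with no overlap between the lines. This share of 32% is close to the 29.7% of all genes tested. The 8 were MRPS33, which passed, and MRPS2, MRPS26, MRPS34, MRPS16, MRPS6, MRPS35 and MRPS27, which did not. MRPS2, the counterpart of bacterial S2, had normalized counts of 873 and 799 in the parental and 601 and 402 in the brain metastatic libraries (log2 fold change -0.76 ± 0.279 SE, adjusted p = 0.104). MRPS26, specific to mitochondria, had 751 and 892 in the parental and 613 and 385 in the brain metastatic libraries (adjusted p = 0.127), and MRPS34, likewise specific, had 1195 and 1411 in the parental and 1095 and 568 in the brain metastatic libraries (adjusted p = 0.177). MRPS16, the counterpart of S16, had 2781 and 3569.7 in the parental and 2364 and 1558 in the brain metastatic libraries (adjusted p = 0.119). The log2 fold changes of these 4 lay between -0.76 and -0.71, and in each of them brain metastatic library B was the lowest.

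MRPS12, of the decoding centre, showed the contrast between the brain metastatic libraries plainly. Its normalized counts were 489 and 644 in the parental and 606 and 316 in the brain metastatic libraries, so library A lay at the parental level and library B below it. The platform proteins MRPS21 and MRPS6 had 788 and 1198 in the parental and 815 and 533 in the brain metastatic libraries and 1654 and 2141 in the parental and 1623 and 1064 in the brain metastatic libraries. MRPS21 and MRPS12 overlapped between the lines, and none of these 3 passed with all libraries (adjusted p from 0.243 to 0.517). The most positive estimates in the small subunit, after MRPS18B, were those of MRPS25, with normalized counts of 615 and 634 in the parental and 574 and 805 in the brain metastatic libraries, MRPS31, with 859 and 894 in the parental and 954 and 884 in the brain metastatic libraries, and MRPS9, of the S9 family, with 1273 and 1115 in the parental and 1267 and 1199.5 in the brain metastatic libraries. All 3 overlapped between the lines, with log2 fold changes of 0.12, 0.07 and 0.05. MRPS31 and MRPS9 stayed within a narrow band in all 4 libraries, as did MRPS5 (log2 fold change -0.01, 95% interval -0.52 to 0.50).

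Levels were compared between genes per length, as CPM per kilobase of the longest transcript (RPKM). The highest in the large subunit were MRPL33, at 170.3 RPKM in parental and 107 RPKM in brain metastatic cells, and MRPL14, at 131 RPKM in parental and 81.3 RPKM in brain metastatic cells. The lowest were MRPL38, at 0.203 RPKM in parental and 0.464 RPKM in brain metastatic cells, and MRPL46, at 1.3 RPKM in parental and 1.22 RPKM in brain metastatic cells. In the small subunit MRPS10, of the S10 family, was highest at 117 RPKM in parental and 92.5 RPKM in brain metastatic cells, followed by MRPS18B at 44.3 RPKM in parental and 55.1 RPKM in brain metastatic cells. MRPS11, of the S11 family, was lowest at 4.18 RPKM in parental and 3.93 RPKM in brain metastatic cells, next to MRPS18C at 5.1 RPKM in parental and 3.2 RPKM in brain metastatic cells. MRPS10 had normalized counts of 5529 and 7521 in the parental and 6408 and 4191 in the brain metastatic libraries, MRPS11 395 and 411 in the parental and 444 and 334 in the brain metastatic libraries and MRPL46 176 and 208 in the parental and 202 and 167 in the brain metastatic libraries, and the lines overlapped in each. The length used decides such an order: the longest transcript of MRPL42 has 15582 nucleotides, and with it MRPL42 reached only 12.5 RPKM in parental and 10.5 RPKM in brain metastatic cells although it was among the 3 members with the most reads, together with MRPS10 and MRPL13. Members for which the annotation lists pseudogenes numbered 34, and their reads may be shared with those copies. Of the genes that fell, only MRPS33 had such copies, 3 of them.

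Members had short transcripts, and short transcripts had lower values in brain metastatic library B throughout the table. The median longest transcript was 1717 nucleotides for members and 3415 for all genes tested. Across 14374 tested genes with a length, Pearson's r between log2 length and the difference from the parental mean was 0.289 for library B and 0.0894 for library A. The parental libraries also differed with length. Over length bins of all tested genes, the median log2 difference of parental library B minus A was 0.38 in the shortest and -0.18 in the longest. Genes are not independent replicates and share their libraries. Across the 77 members, r was 0.159 in library B and -0.042 in library A. After a loess correction of each library for length and GC content, the median log2 fold change of the members was -0.24, against -0.33 before. In that fit 7 members were lower, where 12.5% of all genes were, and 1 was higher, where 11.7% were. The 7 were the 4 called before together with MRPL11, MRPL13 and MRPS16, and the member that rose was MRPL2 (log2 fold change 0.72, adjusted p = 0.0321). The part of length in the result was not tested further.

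**Figure D4:**
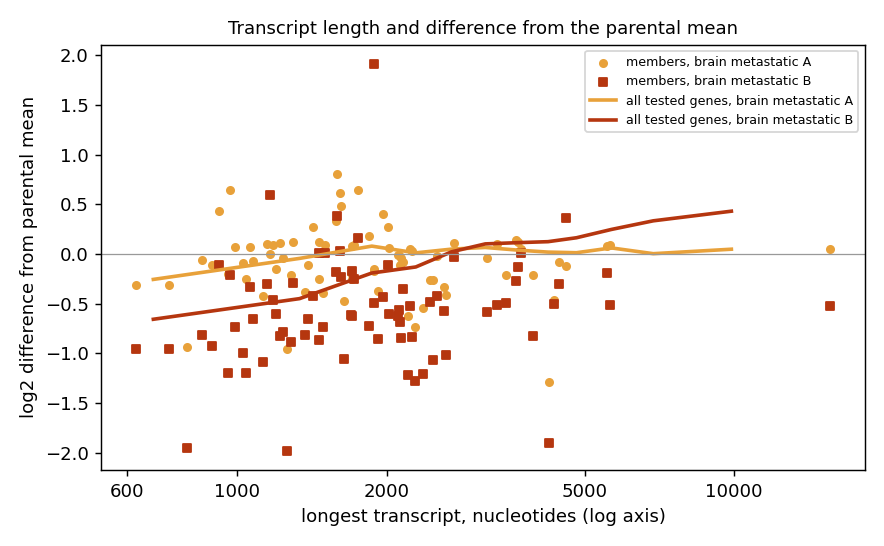
Log2 difference from the parental mean against the length of the longest transcript (log axis) for the 77 members in brain metastatic libraries A and B (points), with the medians of all tested genes in 12 length bins (lines). The line of library B runs from -0.66 in the shortest to 0.43 in the longest bin, and that of library A from -0.26 to 0.05.

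The genes that fell lay next to other genes with lower values. Gene order was taken from GENCODE v29, and for each member the 10 nearest tested genes on either side, other members left out, were compared with it. Over all genes tested, 5.8% were called lower and 8.61% higher. Median log2 fold changes of all tested genes were -0.09 on chromosome 5 and 0.04 on chromosome 11. They were lower on chromosomes 7 and 9, at -0.30 and -0.31. Around MRPL36, on chromosome 5, 9 of 20 neighbours were called lower and 0 higher, with a median log2 fold change of -0.92. Its nearest neighbour NDUFS6, a subunit gene of respiratory complex I chosen here after its values were seen, had a log2 fold change of -1.43 (adjusted p = 0.0126). Around MRPL41, on chromosome 9, 5 of 15 neighbours were lower and 0 higher (median -0.85). Around MRPS33, on chromosome 7, 6 of 20 were lower and 0 higher (median -0.71), among them NDUFB2, another complex I gene (-1.64, adjusted p = 0.0234), and SSBP1. Around MRPL21, on chromosome 11, 3 of 20 were lower and 1 higher (median -0.22). MRPS2, also on chromosome 9, had 6 of 20 neighbours lower and 0 higher (median -0.56). At the other end, neighbour medians were 0.72 for MRPL34, 0.66 for MRPL4, 0.58 for MRPL44 and 0.54 for MRPL17. The log2 fold changes of these members were 0.22, 0.12, 0.40 and -0.02. MRPL13 went against its neighbours (0.64, with 7 of 20 higher). MRPS15 did so too, with a neighbour median of 0.48 and a log2 fold change of -0.39. Many other members with a negative log2 fold change also had a positive neighbour median, among them MRPS10, MRPL30, MRPS28 and MRPL51. Across the 77 members, Pearson's r between a member and its neighbours' median was 0.519 and Spearman's rho 0.331, a description of genes that share libraries. Pearson's r was 0.664 for the differences of brain metastatic library A and 0.422 for those of library B.

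**Figure D5:**
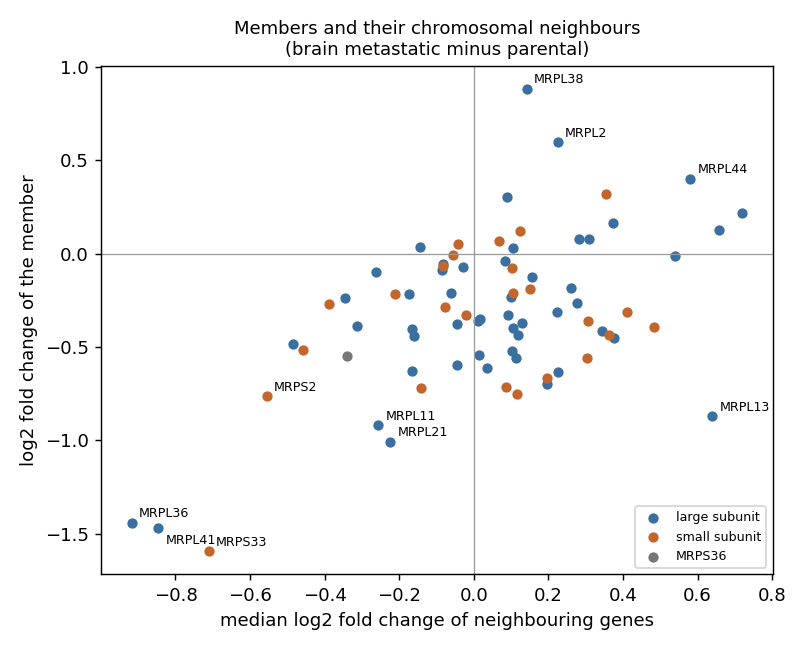
Log2 fold change (brain metastatic minus parental) of each member against the median of its neighbouring genes, 10 on either side where present, coloured by subunit. MRPL36, MRPL41 and MRPS33 combine the lowest fold changes with the lowest neighbour medians, and MRPL13 lies apart with a high neighbour median.

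Genes that overlap a member can share its reads, since the strand setting is not given in the sources used here. By gene spans, 29 members overlap another gene of the table, and 48 do not. All 4 genes that fell are among the 48. The median log2 fold change was -0.33 for the 48 and -0.29 for the 29.

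The cytosolic ribosomal protein genes, the counterpart of the members outside mitochondria, had a more negative median. Of 83, 18 fell (21.7%, against 5.8% of all genes), 0 rose and 65 did not pass, with a median log2 fold change of -0.93, -0.57 for library A and -1.26 for library B. Members had -0.04 and -0.57 in the same libraries. Brain metastatic library B was lowest for 79 of the 83. Cytosolic ribosomal protein genes have many near-identical copies, so their counts are uncertain, and the difference between the families was not tested.

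The remaining proteins of the mitochondrial ribosome have other symbols. Of 5 with a row, 0 rose, against 8.61% of all genes tested, and 0 fell, against 5.8%. The 5 that did not pass were DAP3, PTCD3, CHCHD1, AURKAIP1 and GADD45GIP1. The most abundant, DAP3, a GTP-binding small subunit protein, had normalized counts of 4876 and 4557 in the parental and 4515 and 3820.1 in the brain metastatic libraries, and CHCHD1, also of the small subunit, had 1516 and 2515 in the parental and 1475 and 782 in the brain metastatic libraries. The log2 fold change was -0.18 for DAP3 and -0.86 for CHCHD1.

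Factors that assemble the mitochondrial ribosome had 1 of 28 tested genes higher, 0 lower and 27 not passing, with a median log2 fold change of -0.05. The share that rose was 3.57%, against 8.61% of all genes tested, and 5.8% of all genes fell. NSUN4, an RNA methyltransferase that acts in the assembly of the subunits, rose: its normalized counts were 391 and 381 in the parental and 786 and 822 in the brain metastatic libraries, a log2 fold change of 1.06 ± 0.242 SE (adjusted p = 0.026). MALSU1, which binds MRPL14 and keeps the large subunit apart until it is mature, had 1209 and 1493 in the parental and 1062 and 643 in the brain metastatic libraries (adjusted p = 0.15). The list was mixed, with a negative log2 fold change in 15 genes and a positive one in 13. Among those that did not pass, it reached 0.92 in MPV17L2 and 0.87 in RBFA, and -0.79 in RCC1L. The median of this list relative to the parental mean was 0.05 for library A and -0.22 for library B.

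Among translation factors and messenger RNA-binding proteins of mitochondria, 0 of 16 were higher, against 8.61% of all genes tested, and 0 lower, against 5.8%. All 16 did not pass, and their median was -0.11. The most abundant, LRPPRC, which stabilizes mitochondrial messenger RNA, had normalized counts of 13518 and 10073 in the parental and 10896 and 11767 in the brain metastatic libraries and a log2 fold change of -0.04. The mitochondrial aminoacyl-tRNA synthetases had 0 of 20 higher, 0 lower and 20 not passing, against the same shares of all genes. Their median was 0.10. IARS2, the isoleucyl-tRNA synthetase and the most abundant of them, had 10623 and 11122 in the parental and 8383 and 7291 in the brain metastatic libraries and a log2 fold change of -0.48. In brain metastatic library B the medians of these lists were -0.21 and 0.05. Their median transcripts were longer than the members', at 2852 and 3538 nucleotides.

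Genes for transcription and replication of mitochondrial DNA had 0 of 11 higher, 2 lower and 9 not passing (median -0.06). The 2 are 18.2% of a short list, against 5.8% of all genes tested. TFAM, which packages mitochondrial DNA and starts its transcription, fell: its normalized counts were 7122 and 7240.2 in the parental and 3787 and 4106 in the brain metastatic libraries, with a log2 fold change of -0.86 ± 0.211 SE (adjusted p = 0.0327). SSBP1, the single-stranded DNA-binding protein of mitochondria, also fell, with normalized counts of 5757 and 6304 in the parental and 3658 and 3024 in the brain metastatic libraries (log2 fold change -0.86 ± 0.223 SE, adjusted p = 0.0394). In both genes both brain metastatic libraries lay below both parental libraries. Among nuclear regulators of such genes, 1 of 10 was higher (10%, against 8.61% of all genes), 0 lower and 9 did not pass (median -0.14). PPARGC1A, the coactivator PGC-1alpha, rose from a low level: its normalized counts were 66.5 and 122 in the parental and 306 and 231 in the brain metastatic libraries, with a log2 fold change of 1.55 ± 0.379 SE (adjusted p = 0.0328). GABPA, an ETS factor, had 1233 and 1466 in the parental and 762 and 916 in the brain metastatic libraries and did not pass (log2 fold change -0.69, adjusted p = 0.0956), nor did NRF1 (-0.32) or MYC (0.57).

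A further set of members did not pass with all libraries or in any other fit run. It comprised MRPL4, MRPL9, MRPL15, MRPL16, MRPL17, MRPL18, MRPL19, MRPL20, MRPL27, MRPL28, MRPL30, MRPL32, MRPL34, MRPL35, MRPL37, MRPL39, MRPL42, MRPL49, MRPL50, MRPL52 and MRPL55 in the large subunit. In the small subunit it comprised MRPS7, MRPS10, MRPS11, MRPS14, MRPS15, MRPS17, MRPS22, MRPS23, MRPS27, MRPS28 and MRPS35. Their log2 fold changes ran from -0.45 in MRPL30 to 0.22 in MRPL34. MRPL35 varied little over the 4 libraries, with normalized counts of 2385 and 2636 in the parental and 2600.5 and 2519.9 in the brain metastatic libraries.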

How the data were processed

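RNA-seq of 4 libraries measured expression per gene, 2 per line. The deposited values are a signal per gene, normalized by the authors; HISAT2, featureCounts, DESeq2 and the build GRCh37 are named in the submitters' processing notes, without versions there. How reads on overlapping genes and on either strand were assigned is not given in the sources used here. Within a library 100% of the deposited values were whole multiples of 1 step within 0.01 reads, so they are counts divided by a size factor, and the reads were recovered from them. The recovered reads gave 25835225 to 30771290 reads in named genes per library. The 67 rows without a gene name held 0.031% to 0.0369% of reads and were left out. Of the named rows, 20 have symbols that read as dates and were kept under those names. All value columns were used, leaving 0 unused. Column headers name only the line, and A and B are letters in column order. Libraries of a line differed by more than sampling noise (chi-square per degree of freedom 58.8 for parental and 118.5 for brain metastatic) and were kept as separate replicates.

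Genes were kept by the filter of edgeR 4.0.16 (minimum count 10, minimum total 15), leaving 14424 of 15279 and removing 855. The main test was limma-trend (limma 3.58.1, R 4.3.3) on log2(value + 1), two-sided, with Benjamini-Hochberg adjustment over all genes tested and a threshold of 0.05. It understates the change of low genes. Its script recovered the fold changes set in simulated data. Those data had the same dispersion for all genes and no trend with transcript length, so they do not show how the test treats such trends. On the recovered reads edgeR's quasi-likelihood test called 1293 genes higher and 935 lower, and DESeq2 1.42.0 called 1623 higher and 1287 lower. Other alternatives were limma-voom, library totals or TMM as scaling, pseudocounts of 0.5 and 10, other filters, a loess correction for length and GC content (span 0.5, 14374 genes), and leaving out each library. Exact permutation of 2 against 2 libraries cannot reach 0.05, so single sums were given no test.

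Lengths, gene order, overlaps and pseudogenes came from GENCODE v29, matched by symbol for 15227 of 15279 named rows and all 77 members. It is on another build than the files. Its coordinates were used only among themselves, for gene order and overlaps, and none of them is printed. Upstream sequences are from RefSeq.

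The members and lists were chosen with earlier results of these data known. Values in every library are given for members that passed, the 4 most positive and 4 most negative per subunit, the 2 highest and 2 lowest per subunit by RPKM, the MRPS18 genes, and members whose call changed in an alternative. For related lists up to 2 passing genes per direction are named, or the most abundant gene where none passed. Further genes of these lists, such as CHCHD1, MALSU1, GABPA, NRF1 and MYC, are named outside this rule.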

Additional observations from a re-analysis of the deposited data

How the results depend on the processing

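The 4 lower calls were also made by edgeR and limma-voom. The share of all genes called changed with the setting too. In the main test 5.8% of all genes were lower and 8.61% higher. DESeq2 called 8.92% lower, and after the length and GC correction 12.5% were lower and 11.7% higher. The shares also changed when 1 library was left out, as given above. The counts of members alone therefore do not show a gain of calls relative to other genes. The count of members called lower ran from 0 to 27 when 1 library was left out, and was 7 after the length and GC correction. The count called higher ran from 0 to 1 and was 1 after the correction. In the large subunit the lower count ran from 0 to 17, was 5 with DESeq2 and 5 after the correction, and the higher count ran from 0 to 1 and was 1. In the small subunit the lower count ran from 0 to 9 and was 2 after the correction. Of all 77 members, 22 changed sign without brain metastatic library B, 6 without brain metastatic library A, 4 and 6 without parental libraries A and B, and 8 after the correction. Over these leave-outs, among the 47 members followed singly, the log2 fold changes that changed sign ran from -0.11 to 0.27 for MRPL10, -0.30 to 0.62 for MRPL23, -0.73 to 0.075 for MRPL24, -0.21 to 0.65 for MRPL34, -0.15 to 1.91 for MRPL38, -0.17 to 0.083 for MRPL45, -0.19 to 0.078 for MRPL46, -0.83 to 0.027 for MRPL57, -0.83 to 0.11 for MRPS12, -0.33 to 0.074 for MRPS18A, -0.12 to 0.37 for MRPS25, -0.13 to 0.12 for MRPS5 and -0.046 to 0.15 for MRPS9. The correction turned the sign for MRPL45 (0.013), MRPS18A (0.18) and MRPS25 (-0.098). The cause was not tested, and the fits that leave 1 library out also rest on fewer libraries. Of the values followed for these 47 members, 595 kept direction and side of the threshold, 32 came to pass, 8 no longer passed and 20 changed sign. No paired analysis was possible because the column headers carry no replicate number, so the fit with a replicate block was not run. Depth limits MRPL38, MRPL53 and MRPL23, which had under 100 reads in each library, and 2 libraries per line limit all other members.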
